A study of Homo sapiens with 15 samples.

Results

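The G2 and mitosis genes are 53 genes of the mitotic cyclins, kinases, kinetochore, spindle and cytokinesis, found by symbol among the 23368 rows of the deposited expression table. All 53 symbols were present once, and all 53 passed the filter on low values. Their roles fell into 8 groups, namely 9 genes of the switch into mitosis, 7 mitotic kinases and passenger complex subunits, 8 genes of the spindle checkpoint and chromatid separation, 8 of the centromere and kinetochore, 7 kinesins, 8 other spindle genes, 3 of cytokinesis and 3 of the chromosome itself. By the labels, RNA was sequenced from U2OS, an osteosarcoma cell line. Cells were given Nutlin, which frees p53 from its inhibitor MDM2, or its solvent DMSO. The 6 groups were Nutlin asynchronous (n = 3), DMSO asynchronous (n = 3), Nutlin non-released (n = 2), DMSO non-released (n = 2), Nutlin S-phase (n = 2) and DMSO S-phase (n = 3). Non-released and S-phase cells had been through 2 thymidine blocks of 16 h at 2 mM with 8 h between them, and Nutlin or DMSO was present for the last 4 h of the second block. S-phase cells were then washed free of thymidine and harvested 4 h later, still in Nutlin or DMSO. The labels give a Nutlin dose of 10 with a damaged unit, taken as micromolar. For asynchronous cells the time in Nutlin was not given in the sources used here. By the labels everything comes from 1 cell line, but 1 library, described further on, goes against its label. Nothing in the labels tells if replicates were separate cultures, so each p-value reflects the spread between these libraries alone, which may be technical.

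Genes of G2 and mitosis are switched on late in each cell cycle, when cyclin B and CDK1 drive entry into mitosis, and are shut down again when the anaphase-promoting complex destroys the cyclins and securin. Many of their promoters carry a cell cycle genes homology region (CHR), often beside CCAAT boxes bound by NF-Y, and the CHR is bound by the DREAM complex in resting cells and by B-MYB and FOXM1 with MuvB in G2. Active p53 is known to lower such genes through its target CDKN1A (p21), which lets DREAM form, whereas thymidine arrests cells at the start of and within S-phase, before most of these genes reach their peak.

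The promoters are printed because the CHR and CCAAT letters are what most of these genes share outside the rule that chose them. RefSeq promoters of GRCh38.p14, each 250 bases before to 50 after the annotated start, were matched by symbol to 44 of the 53 genes. TTTGAA, a spelling of the CHR, stood on either strand in 31 of the 44 (70.5%) and in 15.4% of 27305 promoters in the table, and TTTAAA, another spelling, stood in 14 (31.8%) against 12.3%. CCAAT stood in 34 (77.3%) against 35.7%. TTTGAA and CCAAT stood together in 27 (61.4%) against 6.08%, and letters bound by E2F (TTCCCGC with its variants TTCGCGC as well as TTGGCGC) in 11 (25%) against 11.2%. Of 40 TTTGAA matches in these genes, 27 were centred within 50 bases of the start. A match is a description of letters and not a measured site. The 6 promoters below belong to the genes with the most negative (MKI67, CDC20, NEK2, TACC3) and the least negative (PTTG1, CDK1) mean difference between Nutlin and DMSO over the 3 states with all 15 libraries, and capitals mark the CHR letters and CCAAT on either strand. That mean was -0.53 for MKI67, -0.28 for CDC20, -0.28 for NEK2, -0.26 for TACC3, 0.15 for PTTG1 and 0.09 for CDK1. Without the 2 libraries that stand apart, described further on, it was -0.26 for MKI67, -0.33 for CDC20, -0.37 for NEK2, -0.20 for TACC3, 0.05 for PTTG1 and -0.01 for CDK1, so the choice of these 6 is that of the 15 libraries. They lie at chr10:128126374-128126673, - strand, chr1:43358731-43359030, + strand, chr1:211675572-211675871, - strand, chr4:1720381-1720680, + strand, chr5:160421605-160421904, + strand and chr10:60778081-60778380, + strand.
MKI67: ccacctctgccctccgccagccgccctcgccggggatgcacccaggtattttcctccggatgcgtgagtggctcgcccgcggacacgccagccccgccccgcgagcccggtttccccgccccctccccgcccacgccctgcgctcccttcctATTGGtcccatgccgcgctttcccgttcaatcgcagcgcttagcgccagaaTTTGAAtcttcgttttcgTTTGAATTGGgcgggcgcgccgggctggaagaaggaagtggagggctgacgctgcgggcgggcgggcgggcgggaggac
CDC20: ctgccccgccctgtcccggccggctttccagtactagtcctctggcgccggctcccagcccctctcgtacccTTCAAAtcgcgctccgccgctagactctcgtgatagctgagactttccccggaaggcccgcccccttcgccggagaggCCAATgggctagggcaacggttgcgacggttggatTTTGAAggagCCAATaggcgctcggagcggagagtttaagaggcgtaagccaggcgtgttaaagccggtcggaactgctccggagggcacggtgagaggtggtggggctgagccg
NEK2: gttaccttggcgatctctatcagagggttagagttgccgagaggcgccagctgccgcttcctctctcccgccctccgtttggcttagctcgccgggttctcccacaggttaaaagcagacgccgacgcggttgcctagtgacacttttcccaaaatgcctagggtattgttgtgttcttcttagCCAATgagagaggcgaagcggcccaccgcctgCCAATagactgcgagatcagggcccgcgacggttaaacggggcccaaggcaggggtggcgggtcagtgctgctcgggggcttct
TACC3: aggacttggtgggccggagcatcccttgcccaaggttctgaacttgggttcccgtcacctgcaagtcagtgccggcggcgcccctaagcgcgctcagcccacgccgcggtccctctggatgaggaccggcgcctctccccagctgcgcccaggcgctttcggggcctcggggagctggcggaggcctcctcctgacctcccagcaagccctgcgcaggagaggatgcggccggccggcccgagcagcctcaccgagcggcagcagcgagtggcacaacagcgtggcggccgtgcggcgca
PTTG1: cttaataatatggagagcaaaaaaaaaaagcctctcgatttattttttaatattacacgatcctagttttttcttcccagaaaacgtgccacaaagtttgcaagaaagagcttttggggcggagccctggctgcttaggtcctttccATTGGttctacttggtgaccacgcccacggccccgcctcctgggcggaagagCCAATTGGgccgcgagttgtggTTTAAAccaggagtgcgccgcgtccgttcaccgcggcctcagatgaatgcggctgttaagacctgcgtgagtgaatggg
CDK1: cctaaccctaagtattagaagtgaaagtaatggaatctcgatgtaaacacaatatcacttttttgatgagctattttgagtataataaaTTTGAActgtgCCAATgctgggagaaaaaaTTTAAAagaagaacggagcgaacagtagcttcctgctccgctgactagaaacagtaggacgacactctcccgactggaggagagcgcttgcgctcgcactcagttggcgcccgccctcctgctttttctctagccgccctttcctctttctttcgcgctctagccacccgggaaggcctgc

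MKI67 and CDC20 each hold TTTGAA at 2 places and CCAAT at 2, and in MKI67 a CCAAT on the other strand overlaps the second TTTGAA. NEK2 holds CCAAT at 2 places and neither CHR spelling, and TACC3 holds none of these letters in this window. PTTG1 and CDK1, the other end of the ranking, hold a CHR spelling and CCAAT too, and CDK1 holds E2F letters at 2 places. Nutlin and DMSO in asynchronous cells were compared over all 44 genes. With all 15 libraries the median difference was -0.27 for the 31 with TTTGAA and -0.27 for the 13 without it. Of these, 2 and 0 fell (0.546% of all genes). With 13 libraries the medians were -0.34 and -0.31, and 20 of the 31 and 5 of the 13 fell (2.46% of all genes). The differences then ran from -0.62 to -0.14 with TTTGAA and from -0.54 to -0.12 without it. Whether the 2 sets differ was not tested, and other genes were not split by TTTGAA.

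**Figure D1:**
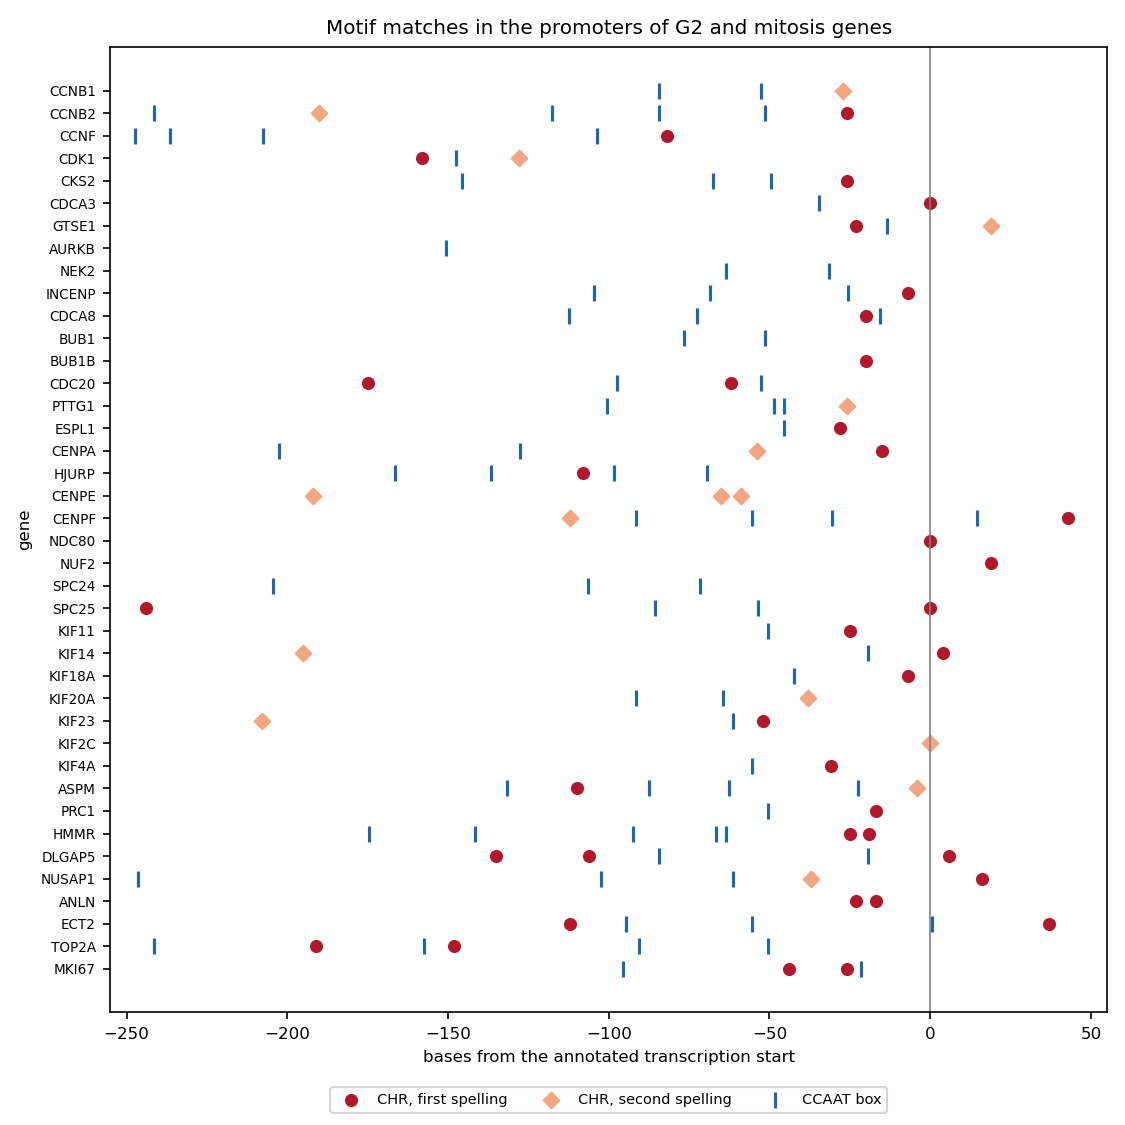
Positions of CHR letters (first spelling TTTGAA, second TTTAAA) and CCAAT boxes in the promoters of the G2 and mitosis genes that hold any of them, with bases from the annotated transcription start on the horizontal axis and 1 gene per row. Most first-spelling matches lie within 50 bases of the start (27 of 40), with CCAAT mostly upstream of them.

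The 15 libraries held 6.05 to 23.4 M reads in genes (median 15.9), recovered from the deposited values, and the shallowest was DMSO S-phase replicate 2. The library labelled DMSO asynchronous replicate 3 goes against its label. The p53 targets CDKN1A and MDM2 stood at 14.10 and 14.77 on the log2 scale there, against 11.47 and 12.44 in DMSO asynchronous replicate 1 and 11.45 and 12.50 in replicate 2, and CDKN1A stood at 13.51 to 13.59 in the Nutlin asynchronous libraries. It also held 7826 normalised reads of the epithelial keratin KRT19, 3506 of CDH1 and 1434 of ESR1, against at most 33.9, 98.9 and 22.6 in any other library, and 14 of 16 epithelial and 10 of 10 luminal breast markers were highest there. The 12 bone and mesenchymal markers summed to 60646.6 normalised reads in that library, against 64898.5 to 89413 in the others. They were thus somewhat lower there but not lost. Of these 12, 1 (TWIST1) was at 0 in every library, and blood markers summed to at most 131 normalised reads. In the same 2 p53 targets DMSO S-phase replicate 2 did not go against its label, with CDKN1A at 11.77 and MDM2 at 12.49. Its mean correlation with the other libraries of its group was 0.990, against 0.995 and 0.993 for DMSO S-phase replicates 1 and 3. DMSO asynchronous replicate 1, whose group holds the library that goes against its label, also had 0.990. Counts of calls are given with all 15 libraries, with 14 (without the library labelled DMSO asynchronous replicate 3) and with 13 (also without DMSO S-phase replicate 2). Why these 2 libraries stand apart was not tested. Leaving out a library because it differs from its group narrows the shared estimate of the spread. The p-values with 13 libraries may therefore be too small, and the counts of calls with 13 too high.

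Across the 6 groups most of the genes were highest in cycling cells without Nutlin. With all 15 libraries the mean was highest in DMSO asynchronous for 37 of the 53 genes, in Nutlin S-phase for 7, in DMSO S-phase for 5 and in DMSO non-released for 4. It was lowest in Nutlin asynchronous for 20, in Nutlin non-released for 17, in Nutlin S-phase for 8, in DMSO non-released for 7 and in DMSO S-phase for 1. No gene was highest in either Nutlin asynchronous or Nutlin non-released, and none was lowest in DMSO asynchronous. With 13 libraries DMSO asynchronous was highest for 40, Nutlin S-phase and DMSO S-phase for 6 each and DMSO non-released for 1, and the lowest group was Nutlin asynchronous for 20 and Nutlin non-released for 17. Summed over the 53 genes, reads came to 9103, 9871 and 10552 per M reads in Nutlin asynchronous, against 11532, 12457 and 11352 per M in DMSO asynchronous, and the groups did not overlap. The sums were 10689 and 10329 per M in Nutlin non-released, against 11413 and 10521 per M in DMSO non-released. They were 11669 and 10065 per M in Nutlin S-phase, against 12052, 10608 and 11667 per M in DMSO S-phase. In both of these states the treatments overlapped. In bulk RNA, fewer cells in G2 and mitosis and less RNA per such cell cannot be told apart.

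**Figure D2:**
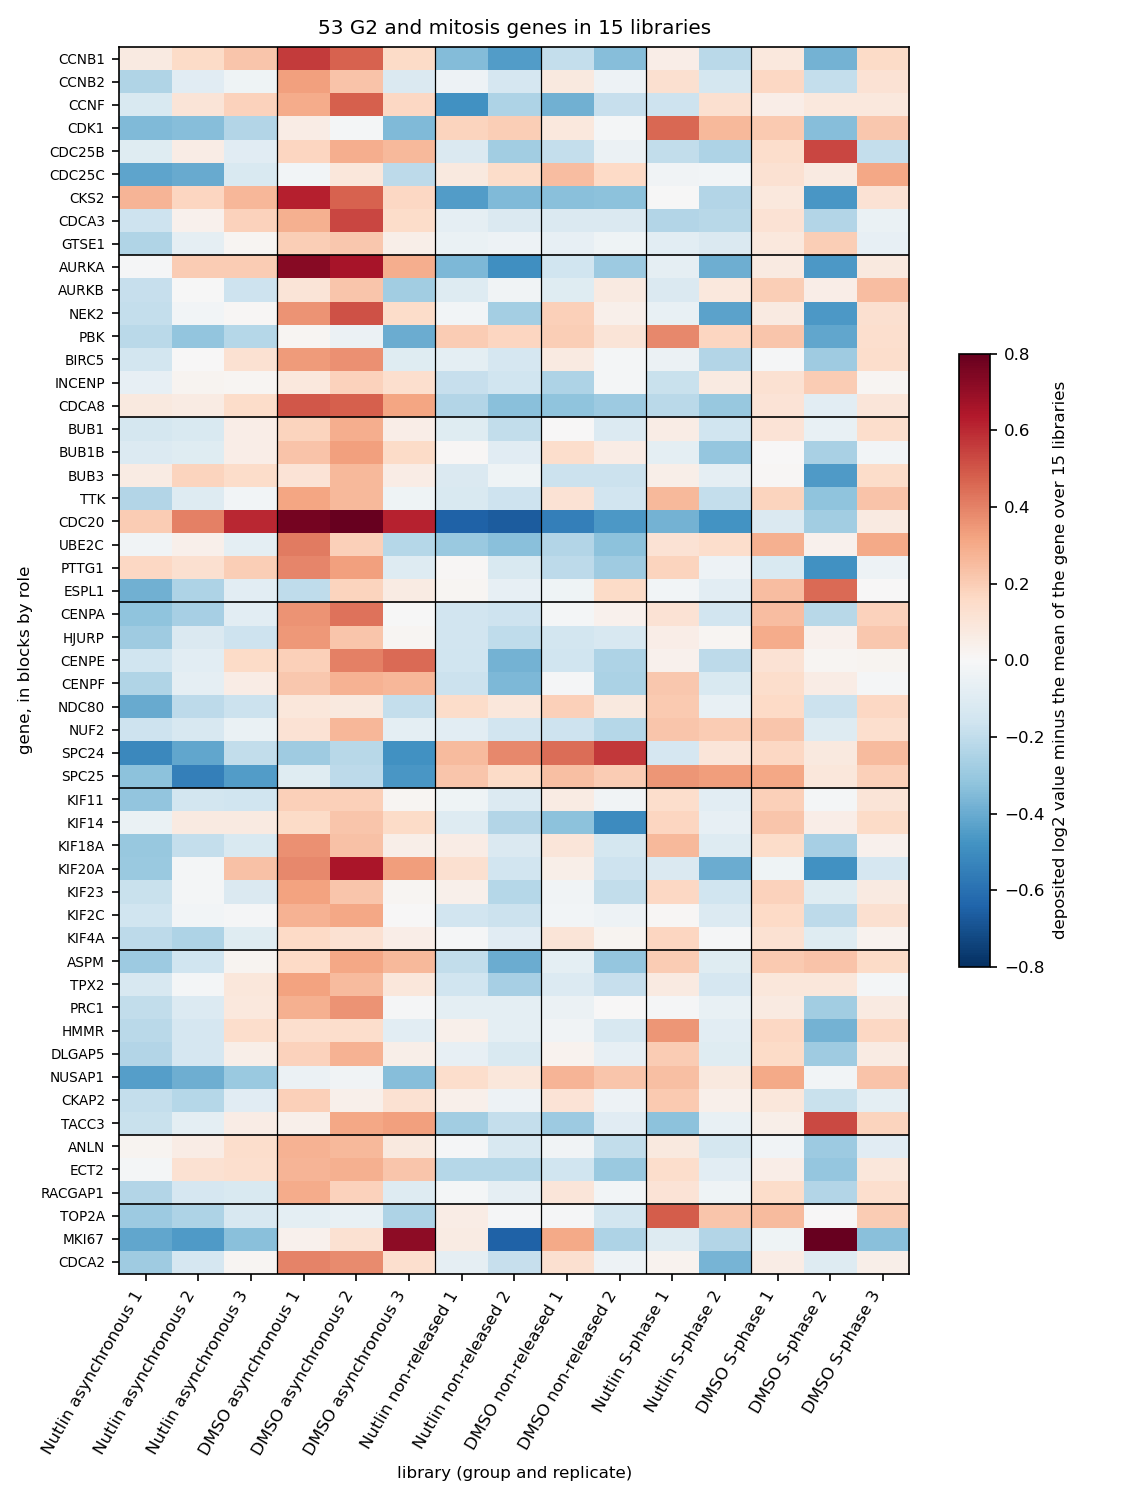
Deposited log2 value of each gene minus its own mean over the 15 libraries, with genes in rows blocked by role and libraries in columns. The colour scale is limited to ±0.8. DMSO asynchronous replicates 1 and 2 are above the mean in most rows, CDC20 is lowest in the Nutlin non-released libraries (10.87 and 10.85), and MKI67 is highest in DMSO S-phase replicate 2 (13.86) and in the library labelled DMSO asynchronous replicate 3 (13.01).

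**Figure D3:**
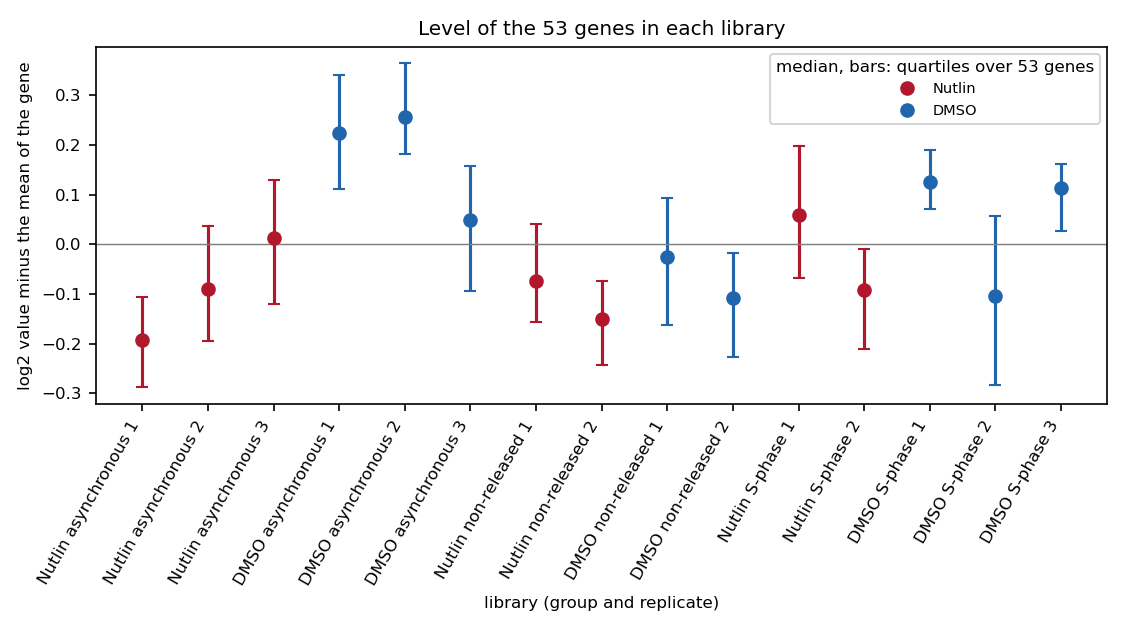
Median over the 53 genes of the log2 value minus the mean of the gene in each library, with bars from the lower to the upper quartile. DMSO asynchronous replicates 1 and 2 stand highest at 0.22 and 0.26, the library labelled DMSO asynchronous replicate 3 is at 0.05, and Nutlin asynchronous replicate 1 is lowest at -0.19.

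Nutlin was set against DMSO in asynchronous cells to see how p53 activity touches these genes in a cycling population. All 53 differences were below 0 (54.78% of all genes), with a median of -0.27 on the log2 scale against -0.02 over all genes tested. With 15 libraries 2 of the 53 fell (0.546% of all genes fell) and none rose (1.91%). With 14 libraries 5 fell (0.832% of all genes) and none rose (2.22%), and with 13 libraries 31 fell (2.46% of all genes) and none rose (3.75%). DMSO S-phase replicate 2 is not in this comparison, so the differences were the same with 14 and 13 libraries (median -0.33 in both). Between these fits only the shared estimate of the spread changed, here and in every comparison without DMSO S-phase cells. The step from 5 to 31 calls thus came from that estimate and not from larger differences. Every Nutlin library lay below every DMSO library for 25 of the 53 genes with 15 libraries (9.64% of all genes) and for 48 with 13 (21.1%). The size was small throughout, since the 13-library differences ran from -0.62 to -0.05.

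The genes that fell with all 15 libraries were CDCA8 (borealin), a subunit of the chromosomal passenger complex, and HJURP, the chaperone that places CENP-A at centromeres. CDCA8 had 10.29, 10.28 and 10.36 in Nutlin asynchronous, against 10.71, 10.69 and 10.53 in DMSO asynchronous. It fell by 0.33 ± 0.08 (SE, n = 3 and 3, limma adjusted p = 0.0406), and its groups did not overlap. HJURP had 10.97, 11.14 and 11.09 in Nutlin asynchronous, against 11.60, 11.48 and 11.27 in DMSO asynchronous. It fell by 0.38 ± 0.09 (limma adjusted p = 0.0459), again without overlap. The next smallest p-values belonged to the spindle motor KIF11 (-0.34 ± 0.09, adjusted p = 0.0727) and to CDCA2, which brings a phosphatase to anaphase chromatin (-0.44 ± 0.12, adjusted p = 0.0733). The chromosome-bound kinesin KIF4A (-0.30 ± 0.08, adjusted p = 0.0784) and the spindle pole protein ASPM (-0.39 ± 0.10, adjusted p = 0.0801) followed. None of these 4 passed the test with 15 libraries. The call of CDCA8 was lost without any of 12 libraries and that of HJURP without any of 13, and both were lost when libraries were centred on their medians or when only the compared groups entered the fit, that of HJURP also with no filter on low values. Leaving out 1 library gave 0 genes called without Nutlin asynchronous replicate 1 or 2, DMSO asynchronous replicate 2, any non-released library or DMSO S-phase replicate 1. It gave 1 without Nutlin asynchronous replicate 3, DMSO asynchronous replicate 1, either Nutlin S-phase library or DMSO S-phase replicate 3, 5 without DMSO asynchronous replicate 3, and 7 without DMSO S-phase replicate 2.

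The 31 genes that fell with 13 libraries came from every role. They were 6 of 9 genes of the mitotic switch, 4 of 7 mitotic kinases and passenger subunits, 4 of 8 of the checkpoint and separation, 5 of 8 of the centromere and kinetochore, 6 of 7 kinesins, 4 of 8 other spindle genes, 1 of 3 of cytokinesis and 1 of 3 of the chromosome. CENPA, the centromeric histone H3 variant, had 9.79, 9.85 and 10.03 in Nutlin asynchronous, against 10.47, 10.55 and 10.11 in DMSO asynchronous, the last from the library that goes against its label. Without that library and DMSO S-phase replicate 2 it fell by 0.62 ± 0.09 (n = 3 and 2, limma adjusted p = 0.0005, 0.000204 to 0.371 over 24 fits). With 15 libraries its difference was -0.49 ± 0.14 (adjusted p = 0.0958). AURKA, a kinase of the spindle poles, had 11.52, 11.73 and 11.73 in Nutlin asynchronous, against 12.26, 12.19 and 11.82 in DMSO asynchronous, and fell by 0.56 ± 0.09 with 13 libraries (adjusted p = 0.00179, 0.000519 to 0.595 over the fits). In both genes the 3 Nutlin values lay below the 3 DMSO values, and the third DMSO value lay nearest to them. RACGAP1, of the complex that builds the cleavage furrow, fell by 0.40 ± 0.07 (adjusted p = 0.0031, 0.000968 to 0.679), and the microtubule-shortening kinesin KIF2C fell by 0.36 ± 0.07 (adjusted p = 0.00407, 0.00233 to 0.727). CDCA8 fell by 0.39 ± 0.07 and HJURP by 0.47 ± 0.07 in the same fit.

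CCNB1, CDK1 and CDC20 fell with 13 libraries and did not pass the test with 15. CCNB1 (cyclin B1) had 12.65, 12.73 and 12.80 in Nutlin asynchronous, against 13.14, 13.05 and 12.73 in DMSO asynchronous, and its difference was -0.25 ± 0.14 (adjusted p = 0.546) with 15 libraries. It fell by 0.37 ± 0.09 with 13 (adjusted p = 0.0193, 0.00245 to 0.852 over 24 fits). CDK1, its kinase partner, had 12.19, 12.20 and 12.31 in Nutlin asynchronous, against 12.60, 12.53 and 12.19 in DMSO asynchronous. The library that goes against its label stood within the Nutlin range for both genes. The difference of CDK1 was -0.21 ± 0.14 (adjusted p = 0.647) with 15 libraries, and it fell by 0.33 ± 0.07 with 13 (adjusted p = 0.0125, 0.00247 to 0.908). CDC20, the activator of the anaphase-promoting complex, had 11.72, 11.92 and 12.12 in Nutlin asynchronous, against 12.28, 12.43 and 12.13 in DMSO asynchronous. The limma difference of CDC20 was -0.36 ± 0.11 (adjusted p = 0.148) with 15 libraries, and it fell by 0.44 ± 0.10 with 13 (adjusted p = 0.0172, 0.000415 to 0.549). BUB3, a checkpoint protein with work outside mitosis, had 12.06, 12.17 and 12.14 in Nutlin asynchronous, against 12.10, 12.25 and 12.05 in DMSO asynchronous. Its groups overlapped, and its difference was -0.01 ± 0.12 (95% interval -0.27 to 0.25, adjusted p = 0.994). It was the smallest of the 53 and turned positive when libraries were centred on their medians. MKI67, a protein of the chromosome surface, had 11.88, 11.84 and 11.96 in Nutlin asynchronous, against 12.33, 12.42 and 13.01 in DMSO asynchronous. The 13.01 is from the library that goes against its label. Its difference of -0.69 ± 0.37 (limma adjusted p = 0.52) was the largest with 15 libraries, whereas with 13 the largest was that of CENPA (-0.62).

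**Figure D4:**
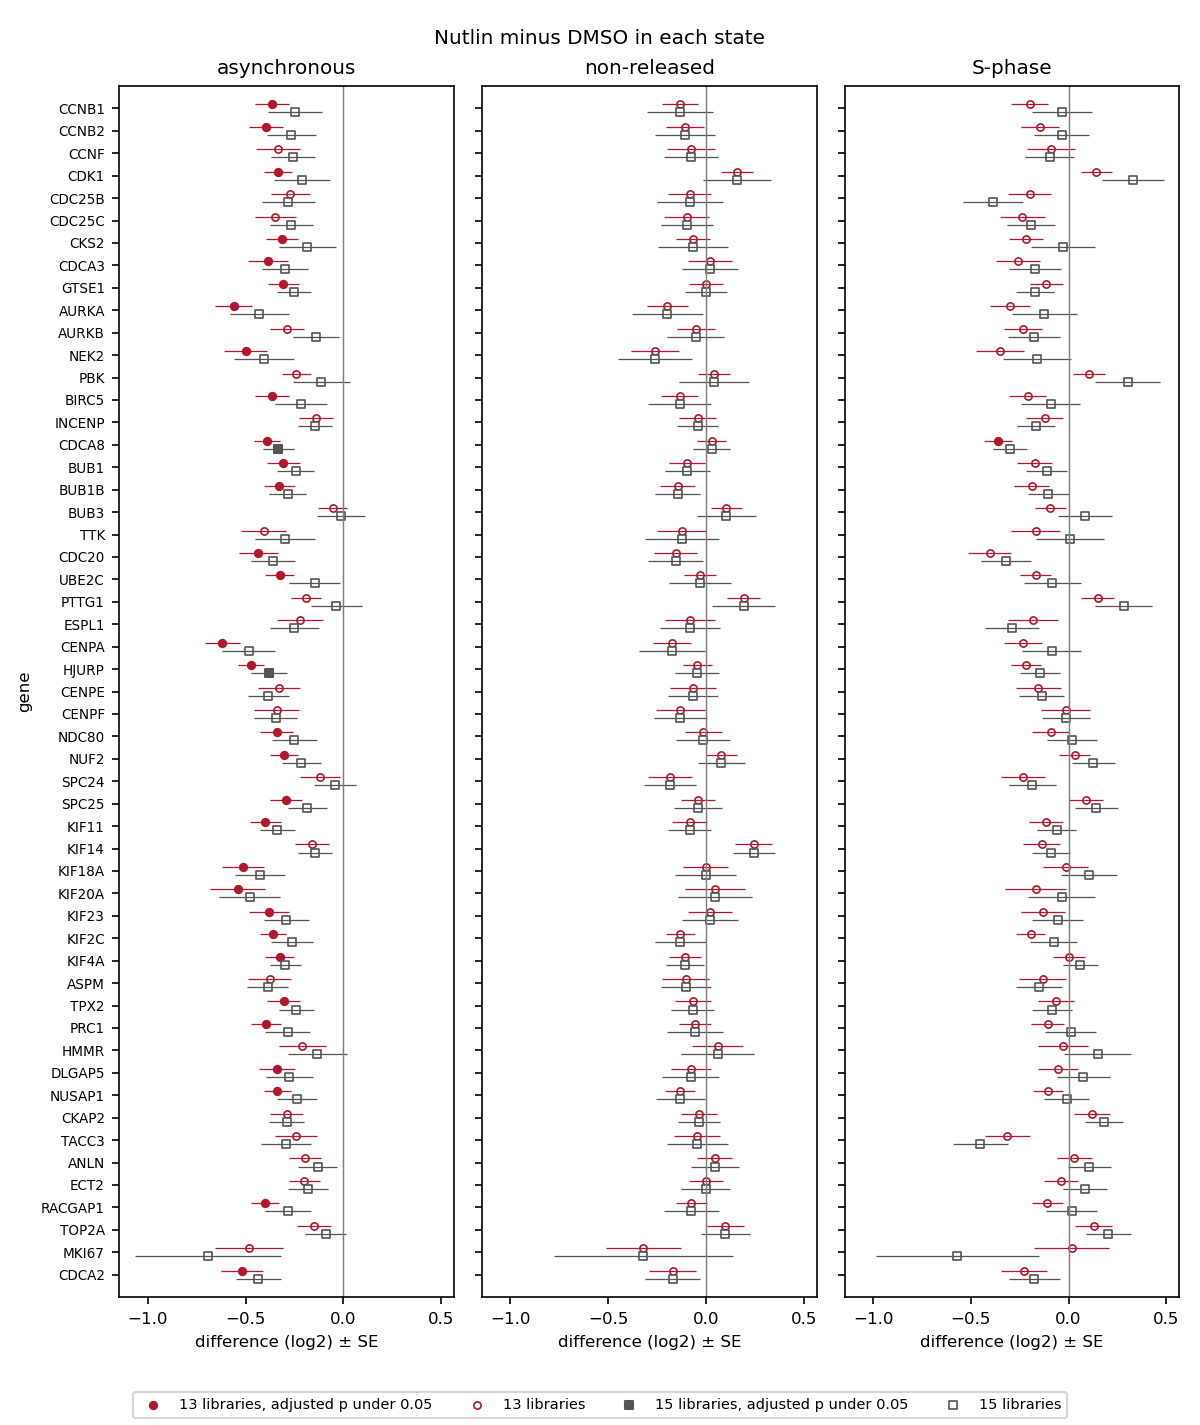
Nutlin minus DMSO in log2 units ± SE for each of the 53 genes in asynchronous (n = 3 and 3), non-released (n = 2 and 2) and S-phase (n = 2 and 3) cells, with 15 libraries (grey squares) and 13 libraries (red circles); filled symbols have adjusted p under 0.05. All asynchronous differences lie below 0, whereas non-released and S-phase differences lie on both sides of 0.

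In non-released cells, held in thymidine, the Nutlin treatment gave no call. The median of the 53 differences was -0.07 (-0.02 over all genes), with 39 below 0 and 14 above (55.81% of all genes were below 0). Every Nutlin library lay below every DMSO library for 19 of the 53 (25.7% of all genes) and above for 5 (20%). None fell or rose by limma with 15 libraries (0.042% of all genes fell and 0.874% rose), with 14 (0.119% and 1.8%) or with 13 (0.42% and 2.79%), and none by voom on recovered reads. At an unadjusted p under 0.05 there was 1 gene with 15 libraries, 1 with 14 and 2 with 13. The share of all genes at that cut was not counted, here or in the comparisons below. KIF14, a kinesin of cytokinesis, had 10.78 and 10.65 in Nutlin non-released, against 10.56 and 10.38 in DMSO non-released, the largest difference above 0 (0.24 ± 0.11, limma adjusted p = 0.668). The kinetochore subunit SPC24 (-0.18 ± 0.13, adjusted p = 0.999) and the centrosome kinase NEK2 (-0.26 ± 0.19, adjusted p = 0.999) followed. The checkpoint gene BUB1B (-0.14 ± 0.11, adjusted p = 0.999), CDCA2 (-0.17 ± 0.14, adjusted p = 0.999) and securin, PTTG1 (0.19 ± 0.16, adjusted p = 0.999), came next. Among the fixed examples, CCNB1 had a limma difference of -0.13 ± 0.17 (adjusted p = 0.999) and CDK1 one of 0.16 ± 0.17 (adjusted p = 0.999). CDC20 had -0.16 ± 0.14 (adjusted p = 0.999) and BUB3 0.10 ± 0.15 (adjusted p = 0.999). With 2 libraries a group the 95% interval of CCNB1 ran from -0.50 to 0.23 and held its asynchronous difference of -0.25. CDCA8, called in asynchronous cells at -0.33, had 0.03 ± 0.10 here, with an interval from -0.18 to 0.24.

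In S-phase cells, 4 h after release, Nutlin also gave no call with 15 libraries. The median of the 53 differences was -0.07 (-0.01 over all genes), with 35 below 0 and 18 above (51.22% of all genes were below 0). None fell with 15 or 14 libraries (0.161% of all genes fell with 15 and 0.385% with 14), none rose with 15, 14 or 13 (1.84%, 2.87% and 3.37% of all genes), and voom called none. At an unadjusted p under 0.05 there were 4 genes with 15 libraries, 6 with 14 and 12 with 13. With 13 libraries the median was -0.13, with 43 below 0 and 10 above (51.4% of all genes were below 0). Every Nutlin library lay below every DMSO library for 7 of the 53 with 15 libraries (12% of all genes) and for 24 with 13 (20.4%). It lay above for 2 in either case (13.8% and 20.1% of all genes). With 13 libraries 1 gene, CDCA8, fell (0.567% of all genes). CDCA8 had 10.00 and 9.91 in Nutlin S-phase, against 10.32, 10.13 and 10.31 in DMSO S-phase, without overlap. Its difference was -0.30 ± 0.09 (limma adjusted p = 0.122) with 15 libraries, and it fell by 0.36 ± 0.07 with 13 (adjusted p = 0.0107, 0.0107 to 0.603 over 24 fits). It was also called without DMSO S-phase replicate 2 alone. Without DMSO S-phase replicate 3 alone the phosphatase gene CDC25B was called instead.

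The other small p-values in S-phase belonged to TACC3, which steadies spindle fibres (-0.45 ± 0.14, limma adjusted p = 0.161), CDC20 (-0.32 ± 0.13, adjusted p = 0.294) and CDC25B, a phosphatase that activates CDK1 (-0.38 ± 0.15, adjusted p = 0.295). CDK1 itself averaged 12.90 ± 0.14 (SD, n = 2) in Nutlin S-phase and 12.57 ± 0.33 (SD, n = 3) in DMSO S-phase, where replicate 2 stood at 12.20. Its difference of 0.33 ± 0.16 (limma adjusted p = 0.409) was the largest above 0, and with 13 libraries it was 0.14 ± 0.08. Separase, ESPL1, had -0.29 ± 0.14 (adjusted p = 0.41). CCNB1 (-0.03 ± 0.16, adjusted p = 0.943) and BUB3 (0.08 ± 0.14, adjusted p = 0.817) were near 0, and without DMSO S-phase replicate 2 BUB3 stood at -0.09 ± 0.08. MKI67 had 12.19 and 12.06 in Nutlin S-phase, against 12.26, 13.86 and 11.96 in DMSO S-phase, and the middle DMSO value alone set its difference. That difference was -0.57 ± 0.42 with 15 libraries and 0.02 ± 0.19 with 13.

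Whether Nutlin acted differently between states was tested as a difference of differences. S-phase cells stayed in Nutlin for 4 h after release, and the time in Nutlin of asynchronous cells was not given. State and time in Nutlin thus cannot be told apart, here or in the comparisons of states within Nutlin. The difference between Nutlin and DMSO in non-released cells minus that in asynchronous cells was above 0 for 52 of 53 genes (median 0.20), and S-phase minus asynchronous was above 0 for 47 (median 0.24). S-phase minus non-released was above 0 for 29 (median 0.04). Over all genes tested 49.98%, 46.95% and 46.24% lay below 0 in these 3 tests, with medians of 0.00, 0.02 and 0.02. Those values are with 15 libraries. With 13 libraries 52, 50 and 10 of the 53 lay above 0 (medians 0.26, 0.24 and -0.06), and 47.73%, 44.51% and 46% of all genes lay below 0. The third test thus changed direction between these fits. No gene passed the limma test in any of the 3, with 15, 14 or 13 libraries (0% of all genes in each test and direction, except 0.021% below 0 in the first with 13 libraries), and voom called none. At an unadjusted p under 0.05 there were 4, 6 and 2 genes with 15 libraries in that order, and 22, 14 and 2 with 13. CDK1 had the smallest p of the first with 13 libraries (0.49 ± 0.11, adjusted p = 0.292, 0.052 to 1 over 24 fits). A difference between states in the response of any 1 gene was thus not shown. The asynchronous libraries enter both of the first 2 tests, so the counts of genes above 0 are not independent.

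Many of these genes were lower in the thymidine block than in cycling cells when the solvent DMSO alone was given. Non-released against asynchronous cells gave 21 of 53 lower (39.6%, against 17% of all genes) and 3 higher (5.66%, against 16.9%) with 15 libraries, with a median of -0.25 against -0.01 over all genes. With 14 libraries 24 were lower (45.3%, against 18.7% of all genes) and 2 higher (3.77%, against 18.7%). With 13 libraries 35 were lower (66%, against 24.2% of all genes) and 3 higher (5.66%, against 23.5%). In Nutlin the same contrast gave 6 lower (11.3%, against 17.2% of all genes) and 7 higher (13.2%, against 17.3%), with a median of -0.01 against 0.00 over all genes. With 14 libraries 8 were lower (15.1%, against 19.2%) and 7 higher (13.2%, against 20.6%), and with 13 libraries 10 were lower (18.9%, against 24.6%) and 8 higher (15.1%, against 25.2%). In Nutlin the shares of the 53 thus lay at or under those of all genes. The DMSO asynchronous libraries enter both this contrast in DMSO and the Nutlin comparison in asynchronous cells.

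The lower genes were led by CDC20. It had 10.97 and 11.06 in DMSO non-released, against 12.28, 12.43 and 12.13 in DMSO asynchronous, and 10.87 and 10.85 in Nutlin non-released, against 11.72, 11.92 and 12.12 in Nutlin asynchronous. It fell by 1.26 ± 0.13 in DMSO (n = 2 and 3, limma adjusted p = 1.82e-05) and by 1.06 ± 0.13 in Nutlin (adjusted p = 5.82e-05), without overlap. CDCA8 had 9.89 and 9.92 in DMSO non-released, against 10.71, 10.69 and 10.53 in DMSO asynchronous. It fell by 0.74 ± 0.09 in DMSO (adjusted p = 5.23e-05) and by 0.38 ± 0.09 in Nutlin (adjusted p = 0.00492). CKS2, a small partner of CDK1, fell by 0.75 ± 0.16 in DMSO (adjusted p = 0.00326) and by 0.63 ± 0.16 in Nutlin (adjusted p = 0.00879). These 3 genes were thus among those lower in the block with either treatment. CCNB1 averaged 12.31 in DMSO non-released against 12.97 in DMSO asynchronous, and 12.18 in Nutlin non-released against 12.73 in Nutlin asynchronous. AURKA averaged 11.30 against 12.09 in DMSO and 11.11 against 11.66 in Nutlin. KIF14 had 10.56 and 10.38 in DMSO non-released, against 11.04, 11.11 and 11.04 in DMSO asynchronous, and fell by 0.59 ± 0.10 (adjusted p = 0.000512). In Nutlin its difference was -0.20 ± 0.10 (limma adjusted p = 0.122). CENPE, the kinetochore motor, fell by 0.55 ± 0.12 in DMSO (adjusted p = 0.0029) and had -0.23 ± 0.12 in Nutlin (adjusted p = 0.14). CCNF, an F-box protein, fell by 0.60 ± 0.13 in DMSO (adjusted p = 0.00269) and by 0.42 ± 0.13 in Nutlin (adjusted p = 0.0208).

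The higher genes in the block were SPC24 and SPC25, paired subunits of the NDC80 complex that ties microtubules to kinetochores, and NUSAP1, which bundles spindle microtubules. SPC24 had 9.59 and 9.71 in DMSO non-released, against 8.86, 8.92 and 8.66 in DMSO asynchronous, and 9.40 and 9.53 in Nutlin non-released, against 8.63, 8.73 and 8.95 in Nutlin asynchronous. It rose by 0.84 ± 0.12 in DMSO (limma adjusted p = 0.000213) and by 0.70 ± 0.12 in Nutlin (adjusted p = 0.000764). SPC25 rose by 0.48 ± 0.11 in DMSO (adjusted p = 0.00502) and by 0.63 ± 0.11 in Nutlin (adjusted p = 0.000941). NUSAP1 rose by 0.38 ± 0.11 in DMSO (adjusted p = 0.0197) and by 0.49 ± 0.11 in Nutlin (adjusted p = 0.00529), and its DMSO call was lost without DMSO asynchronous replicate 3 or either DMSO non-released library. In Nutlin 4 more genes rose. CDK1 rose by 0.50 ± 0.16 (adjusted p = 0.0257), CDC25C, a phosphatase that activates CDK1, by 0.43 ± 0.12 (adjusted p = 0.0158), NDC80 by 0.38 ± 0.13 (adjusted p = 0.0334) and the kinase PBK by 0.44 ± 0.16 (adjusted p = 0.0496). In DMSO the same 4 had 0.13 ± 0.16 for CDK1, 0.26 ± 0.12 for CDC25C, 0.14 ± 0.13 for NDC80 and 0.29 ± 0.16 for PBK, and none passed the test (limma adjusted p of 0.552, 0.122, 0.413 and 0.19). NUF2, of the same complex as NDC80, fell by 0.30 ± 0.11 in DMSO (adjusted p = 0.0499, 0.000784 to 0.225 over 24 fits).

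Of the 24 calls in DMSO, 9 were made in every one of the 24 fits, those of CDC20, CDCA8, SPC24, KIF14, CCNF, CENPE, AURKA, CKS2 and SPC25. Of the 13 in Nutlin, 3 were, those of CDC20, SPC24 and SPC25. Leaving out 1 library gave 10 calls without DMSO non-released replicate 2 and 14 without DMSO non-released replicate 1 or DMSO asynchronous replicate 2 in DMSO. It gave 4 and 6 without Nutlin non-released replicate 1 and 2, and 7 without Nutlin asynchronous replicate 2, in Nutlin. In Nutlin the calls of CDCA8 (without Nutlin non-released replicate 2), CKS2 and NUSAP1 (without replicate 1 of that group) each hung on 1 library, that of CCNF on 3, and those of CDK1, CDC25C and NDC80 on any of 4 Nutlin libraries, while that of PBK was lost without any of 10 libraries. The call of NUF2 in DMSO was lost without any of 12 libraries. With no filter on low values the Nutlin calls of CCNF, CDK1, NDC80 and PBK were lost, and centring libraries on their medians ended the last 3 of these. Fitting only the compared groups ended the DMSO calls of NUSAP1 and NUF2, and centring or no filter each ended that of NUF2.

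The same question was asked of S-phase cells, 4 h after release. S-phase against asynchronous cells gave 12 lower (22.6%, against 13.6% of all genes) and 3 higher (5.66%, against 14.1%) with 15 libraries, with a median of -0.13 against -0.01 over all genes. With 14 libraries 15 were lower (28.3%, against 15.8% of all genes) and 2 higher (3.77%, against 15.5%), and with 13 libraries 14 were lower (26.4%, against 16% of all genes) and 4 higher (7.55%, against 15.6%). In Nutlin 2 were lower (3.77%, against 10.6% of all genes) and 9 higher (17%, against 13.4%), with a median of 0.11 against 0.00. With 14 libraries 2 were lower (3.77%, against 12.7%) and 10 higher (18.9%, against 16.6%), and with 13 libraries 5 were lower (9.43%, against 19.3%) and 15 higher (28.3%, against 21.7%). CDC20 had 11.40, 11.24 and 11.59 in DMSO S-phase, against 12.28, 12.43 and 12.13 in DMSO asynchronous. It fell by 0.87 ± 0.11 in DMSO (n = 3 and 3, limma adjusted p = 0.000192) and by 0.83 ± 0.13 in Nutlin (adjusted p = 0.000614). CDCA8 fell by 0.39 ± 0.08 in DMSO (adjusted p = 0.00326) and by 0.36 ± 0.09 in Nutlin (adjusted p = 0.0101). CDC20 and CDCA8 were the only ones called lower with both treatments. AURKA fell by 0.66 ± 0.15 in DMSO (adjusted p = 0.006) and had -0.36 ± 0.17 in Nutlin (adjusted p = 0.138). KIF20A, which carries the passenger complex to the midzone, fell by 0.68 ± 0.15 in DMSO (adjusted p = 0.00627) and had -0.23 ± 0.17 in Nutlin (adjusted p = 0.356).

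The genes above their asynchronous level in S-phase again included SPC24, SPC25 and NUSAP1. SPC25 had 10.01 and 9.99 in Nutlin S-phase, against 9.33, 9.11 and 9.21 in Nutlin asynchronous, and 9.97, 9.75 and 9.85 in DMSO S-phase, against 9.56, 9.45 and 9.19 in DMSO asynchronous. It rose by 0.78 ± 0.11 in Nutlin (limma adjusted p = 0.000385) and by 0.46 ± 0.10 in DMSO (adjusted p = 0.00517). SPC24 rose by 0.36 ± 0.12 in Nutlin (adjusted p = 0.0457) and by 0.50 ± 0.11 in DMSO (adjusted p = 0.00472). NUSAP1 rose by 0.53 ± 0.11 in Nutlin (adjusted p = 0.00487) and by 0.31 ± 0.10 in DMSO (adjusted p = 0.0398). TOP2A, the enzyme that untangles sister chromatids, had 14.74 and 14.48 in Nutlin S-phase, against 13.97, 14.01 and 14.13 in Nutlin asynchronous, and rose by 0.57 ± 0.12 (adjusted p = 0.00345). CDK1 rose by 0.67 ± 0.16 in Nutlin (adjusted p = 0.00834). In DMSO the differences were 0.28 ± 0.10 for TOP2A and 0.13 ± 0.14 for CDK1, and neither passed the test (adjusted p = 0.0602 and 0.528). Of the 15 calls in DMSO, those of CDC20, SPC24 and KIF20A were made in all 24 fits, and of the 11 in Nutlin those of SPC25 and CDC20. Leaving out 1 library gave 7 calls without DMSO asynchronous replicate 2, 9 without DMSO asynchronous replicate 1 and 10 without DMSO S-phase replicate 2 in DMSO. It gave 3 without Nutlin S-phase replicate 1, 6 without Nutlin S-phase replicate 2 or Nutlin asynchronous replicate 1 or 2, and 7 without either Nutlin non-released library in Nutlin. In Nutlin the calls of TOP2A, NUSAP1 and CDK1 were lost without Nutlin S-phase replicate 1, that of CDCA8 without Nutlin S-phase replicate 2, and that of SPC24 without any of 11 libraries. The DMSO call of NUSAP1 was lost without any of 10. Fitting only the compared groups ended the DMSO calls of CDCA8, AURKA, SPC25 and NUSAP1, centring or no filter each ended that of NUSAP1, and voom, centring or no filter each ended that of SPC24 in Nutlin.

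S-phase was also set against the block itself. In DMSO KIF14 and CDCA8 rose, 2 of 53 genes (3.77%, near the 4.11% of all genes) with none lower (2.89% of all genes) with 15 libraries. With 14 libraries 4 were higher (7.55%, against 5.48%) and none lower (4.38%). With 13 libraries 11 were higher (20.8%, against 7.9%) and none lower (6.28%), and the median was 0.18 against -0.01 over all genes. KIF14 had 11.11, 10.94 and 11.04 in DMSO S-phase, against 10.56 and 10.38 in DMSO non-released. It rose by 0.56 ± 0.10 (n = 3 and 2, limma adjusted p = 0.0036). CDCA8 had 10.32, 10.13 and 10.31 in DMSO S-phase, against 9.89 and 9.92 in DMSO non-released, and rose by 0.35 ± 0.09 (adjusted p = 0.0287). Neither gene overlapped between the groups. UBE2C, the conjugating enzyme of the anaphase-promoting complex, had 0.49 ± 0.14 (adjusted p = 0.0575), ASPM 0.39 ± 0.12 (adjusted p = 0.0595), TACC3 0.45 ± 0.14 (adjusted p = 0.0791) and CDC20 0.39 ± 0.13 (adjusted p = 0.0811) by limma with 15 libraries. With 13 libraries UBE2C rose by 0.58 ± 0.08 (adjusted p = 0.000341, 0.000341 to 0.319 over 24 fits) and CDC20 by 0.48 ± 0.11 (adjusted p = 0.0106, 0.0105 to 0.395). The largest difference below 0 was that of SPC24 (-0.34 ± 0.12, limma adjusted p = 0.117). Without DMSO non-released replicate 2 no gene was called, without replicate 1 of that group or DMSO S-phase replicate 1 only KIF14 was, without DMSO asynchronous replicate 1 or either Nutlin S-phase library 3 were, without DMSO asynchronous replicate 3 there were 4, and without DMSO S-phase replicate 2 there were 6. Without DMSO S-phase replicate 3 the call of CDCA8 was lost, and fitting only the compared groups ended both calls.

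In Nutlin, S-phase against non-released cells gave no call with 15 libraries by limma (1.6% of all genes were higher and 0.832% lower) or by voom, and 7 genes at an unadjusted p under 0.05. With 14 libraries 1 was higher (2.61%) and none lower (1.69%), and with 13 libraries 4 were higher (6.3%) and none lower (4.48%). UBE2C had 11.40 and 11.43 in Nutlin S-phase, against 10.99 and 10.95 in Nutlin non-released, without overlap. Its difference was 0.44 ± 0.16 (limma adjusted p = 0.18) with 15 libraries, and it rose with 14 and 13 (adjusted p = 0.004 with 13, 0.0015 to 0.524 over 24 fits). The kinetochore subunit NUF2 (0.33 ± 0.12, adjusted p = 0.185), ASPM (0.35 ± 0.13, adjusted p = 0.19), TOP2A (0.33 ± 0.13, adjusted p = 0.209) and CCNF (0.34 ± 0.14, adjusted p = 0.228) followed with 15 libraries. SPC24 had the largest difference below 0 (-0.34 ± 0.13, adjusted p = 0.214). NUF2, TOP2A and CCNB1 joined UBE2C with 13 libraries.

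**Figure D5:**
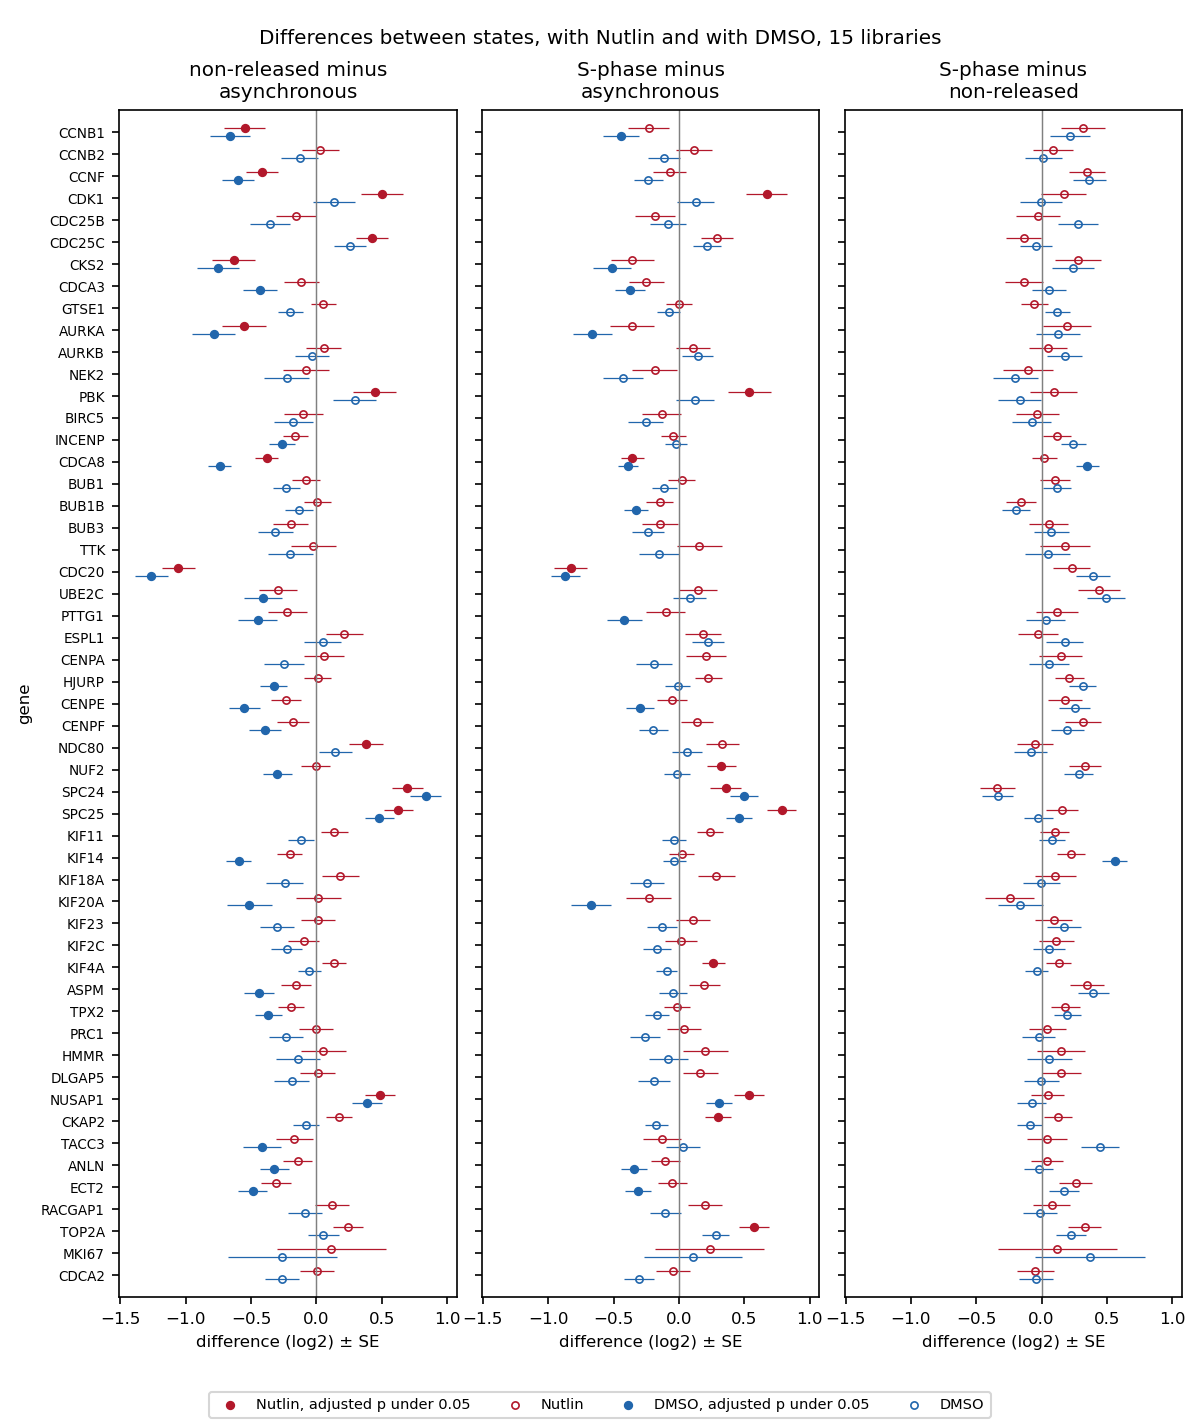
Differences between states in log2 units ± SE for each of the 53 genes, in Nutlin (red) and DMSO (blue), with 15 libraries; filled symbols have adjusted p under 0.05. CDC20 is far below 0 and SPC24 and SPC25 are above 0 for both states against asynchronous, with either treatment.

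A list of 105 other genes of G2 and mitosis, with 103 tested, was set beside the 53. In Nutlin against DMSO in asynchronous cells 5 of the 103 fell with 15 libraries (0.546% of all genes). The count was 9 with 14 libraries (0.832%) and 23 with 13 (2.46%). None of the 103 rose (1.91%, 2.22% and 3.75% of all genes), and the median was -0.15 (15 libraries). The 4 with the smallest p were WEE1, the kinase that holds CDK1 inactive (-0.38 ± 0.08, limma adjusted p = 0.0156), the lamin LMNB1 (-0.45 ± 0.09, adjusted p = 0.0216), the spindle gene PSRC1 (-0.40 ± 0.09, adjusted p = 0.0406) and STIL, needed to build centrioles (-0.35 ± 0.08, adjusted p = 0.0454). In non-released cells none of the 103 was called with 15, 14 or 13 libraries. Of all genes 0.042%, 0.119% and 0.42% fell there, and 0.874%, 1.8% and 2.79% rose. In S-phase none was called with 15 or 14 libraries, and PSRC1 alone fell with 13 (-0.38 ± 0.09, adjusted p = 0.0349). Of all genes 0.161%, 0.385% and 0.567% fell in S-phase with 15, 14 and 13 libraries, and 1.84%, 2.87% and 3.37% rose. Non-released against asynchronous cells gave 24 lower (17% of all genes) and 14 higher (16.9%) of the 103 in DMSO. In Nutlin it gave 11 lower (17.2%) and 26 higher (17.3%). S-phase against asynchronous cells gave 15 lower (13.6% of all genes) and 8 higher (14.1%) in DMSO, and 4 lower (10.6%) and 21 higher (13.4%) in Nutlin. S-phase against non-released cells gave 1 higher (4.11% of all genes) and 4 lower (2.89%) in DMSO. In Nutlin it gave none in either direction (1.6% of all genes higher and 0.832% lower). These counts between states are all with 15 libraries.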

How the data were processed

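RNA, of U2OS cells by the labels, was sequenced as 15 libraries in 6 groups. Build hg19 and the tools DESeq2 1.10.1, HTSeq, CASAVA 1.8.2 and TopHat 0.9 appear, with no role for each, per the submitters' processing notes. For annotation and strand, nothing is stated. The authors deposited 1 table of variance-stabilised log2 values, which compress differences at low read numbers. Inverting the transformation from its lowest value (4.86, 0 reads) gave reads within 0.05 of whole numbers for at least 99.04% of values in each library. A gene with 0 reads lies under 0.128 to 0.496 reads per M by library, a limit of 3 reads that covers counting error only.

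Differences were tested here with limma 3.58.1 in R 4.3.3 on the deposited values, with 1 mean per group over all 15 libraries and eBayes with a trend. Tests were two-sided, with the Benjamini-Hochberg adjustment over the 14298 genes with at least 2 libraries 1 unit above the lowest value, and adjusted p under 0.05 was called. The script was tested on simulated data. Full statistics went to the 6 genes with the smallest p in each comparison, to genes called against the median direction, and in the Nutlin comparisons to CCNB1, CDK1, CDC20 and BUB3. MKI67, CENPE and others were named after their values were seen. The members and all lists were chosen with earlier results of these data known. Sequences are from RefSeq on GRCh38.p14, with the first listed start used for 6 genes with several.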

Additional observations from a re-analysis of the deposited data

How the results depend on the processing

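The share of all genes called was counted only for the fits with 15, 14 and 13 libraries, given above. For every other fit, here and where 1 library is left out, the counts of the 53 cannot be set against all genes. The number of genes called moved by over 1.5 times as follows. For Nutlin against DMSO in asynchronous cells it was 2 with 15 libraries, 0 with only the compared groups in the fit, 0 with libraries centred on their medians, 1 with no filter on low values, 31 without both libraries that stand apart and 43 with a replicate block without both. In S-phase it was 1 rather than 0 without both libraries, with or without the block. Non-released against asynchronous in DMSO gave 24 in the main fit, 14 with compared groups only, 38 without both libraries and 42 with the block too. S-phase against asynchronous in DMSO gave 15, 3 with compared groups only and 8 with no filter. S-phase against non-released in DMSO gave 2, 0 with compared groups only, 5 with the replicate block, 11 without both libraries and 12 with the block too. In Nutlin, non-released against asynchronous gave 13, 22 with compared groups only and 8 with no filter. S-phase against asynchronous in Nutlin gave 11, 17 with compared groups only, 7 with centring, 7 with no filter, 20 without both libraries and 23 with the block too. S-phase against non-released in Nutlin gave 0, 1 with compared groups only, 4 without both libraries and 9 with the block too. The cause was not tested. Leaving out each library in turn, Nutlin against DMSO gave 0 to 7 calls in asynchronous, 0 to 0 in non-released and 0 to 1 in S-phase cells. Non-released against asynchronous gave 4 to 15 in Nutlin and 10 to 27 in DMSO. S-phase against asynchronous gave 3 to 14 in Nutlin and 7 to 17 in DMSO, and S-phase against non-released gave 0 to 1 in Nutlin and 0 to 6 in DMSO. The differences of differences gave 0 to 0. BUB3 changed sign for Nutlin against DMSO in asynchronous cells, to 0.012 with centring, and ran from -0.055 to 0.047 over the libraries left out, being 0.019 without Nutlin asynchronous replicate 1. In S-phase BUB3 changed sign to -0.093 without both libraries and -0.074 with the block without both, a fit chosen after seeing the data, and ran from -0.093 (without DMSO S-phase replicate 2) to 0.207 over the libraries left out. CCNB1 in S-phase ran from -0.199 to 0.102 over the libraries left out, with the sign changed without Nutlin S-phase replicate 2, DMSO S-phase replicate 1 (0.030) or DMSO S-phase replicate 3 (0.067). The median of the 53 changed sign for Nutlin in S-phase without Nutlin S-phase replicate 2 (0.04), for S-phase against asynchronous in Nutlin without Nutlin S-phase replicate 1 (-0.02) and for non-released against asynchronous in Nutlin without Nutlin asynchronous replicate 3 (0.02), Nutlin non-released replicate 2 (0.03) or with the block without both (0.0073). In the difference of responses between S-phase and non-released cells it was -0.059 without both libraries or DMSO S-phase replicate 2 alone, -0.0061 without DMSO non-released replicate 1 and -0.076 without Nutlin S-phase replicate 1. In the other comparisons it kept its direction under the 23 alternatives.

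Replicate numbers are shared between groups, and same-numbered Nutlin and DMSO libraries correlated in their deviations from the group means at 0.313, 0.136 and 0.074 in asynchronous cells, at 0.325 for both numbers in non-released cells and at 0.341 and 0.351 in S-phase cells. Different-numbered libraries correlated at -0.322 to 0.221 in asynchronous cells, at -0.325 in non-released cells and at -0.351 to 0.27 in S-phase cells. In a group of 2 libraries the deviations are equal and opposite, so these values are not independent. The value of 0.074, from the library that goes against its label, is under 0.1, so the numbers were not taken to pair libraries, and whether that library alone keeps it there was not tested. The replicate block alone gave 3 rather than 2 calls for Nutlin in asynchronous cells, 16 rather than 15 for S-phase against asynchronous in DMSO and 10 rather than 11 in Nutlin. Of the 2 calls for Nutlin in asynchronous cells it ended that of HJURP, and KIF4A and CKAP2 were called. It also ended the calls of NUF2 and KIF20A for non-released against asynchronous in DMSO and of NUF2 for S-phase against asynchronous in Nutlin. Groups of 2 or 3 libraries limit the precision.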
